A study of Arabidopsis thaliana with 6 samples.

Results

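Arabinogalactan proteins and glycine-rich proteins were compared between wild-type and anac089-2 seeds of Arabidopsis thaliana. The set held AGP1 (AT5G64310) and each probe set other than controls whose title in the authors' deposited table contains "arabinogalactan" or "glycine-rich protein" and does not contain "RNA-binding". This gave 118 of 22746 probe sets. Of these, 24 were titled arabinogalactan protein, 12 fasciclin-like arabinogalactan protein (FLA), and 82 glycine-rich protein. The glycine-rich titles name a sequence feature and not a place in the wall. That class therefore also holds oleosins, pollen coat proteins, a transcription co-activator relative and a late embryogenesis abundant protein.

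Arabinogalactan proteins are short secreted proteins rich in proline, alanine, serine and threonine. Their prolines are hydroxylated and then carry large branched chains of galactose and arabinose, and many are anchored in the plasma membrane by a lipid tail. They act at the cell surface in cell expansion, in signalling and in reproduction, and the FLAs add fasciclin domains, which are known for adhesion. Glycine-rich proteins share only long stretches of glycine. Some strengthen the wall, some bind receptor kinases in the wall, and others work inside the cell.

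Wild-type seeds were of the accession Columbia-0 (Col-0). The other group carried the anac089-2 mutation in the same Columbia-0 background. ANAC089 encodes a membrane-anchored transcription factor of the NAC family. Seeds of both groups were first held wet, cold (4 °C) and dark for 3 days. They then spent 3 h in light at 22 °C with 5 µM abscisic acid (ABA), a hormone that blocks germination. Since every seed had ABA, no value here measures a response to it. The sources used here do not say what lesion anac089-2 carries. Each group had 3 biological replicates, each hybridised to its own Affymetrix array. No probe set is tied to ANAC089 in the sources used here, so the mutated gene was not checked.

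Values are log2 levels made by robust multi-array averaging (RMA), and differences are anac089-2 minus wild type. A probe set was called changed at a limma adjusted p under 0.05, adjusted over all 22746 probe sets. Median levels of the arrays ran from 3.97 to 4.01 on 5 arrays and stood at 3.80 on wild-type replicate 3, the array that stood apart. The seed storage gene CRA1 had a mean level of 13.61, near the top of the scale. It was the 1 gene of 9 on the list of storage and oil body markers that could be tied to a probe set. The measured endosperm markers FIS2 and AGL62 (2 of 5 listed) and the seed coat marker BAN (1 of 5) had mean levels between 2.58 and 3.11, below every array median. So few markers cannot show whether these tissues were present, which was not tested.

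Over the set, 5 probe sets fell and 2 rose in anac089-2. The 7 calls are 5.93% of the 118 members, near the 4.92% of all probe sets. Over all probe sets 2.94% were called higher and 1.98% lower, whereas among the members the lower calls were the more numerous. An unadjusted p under 0.05 was found for 20 members, where 19.3% of all probe sets had one. The median difference was -0.06 for the members and 0.04 for all probe sets. Differences were negative for 71 members, positive for 45 and zero for 2. The groups did not overlap for 28 members, or 23.7%, against 24.0% of all probe sets. Of these, 11 were higher and 17 lower in anac089-2, where the shares over all probe sets were 15.8% and 8.23%. The upward lean of all probe sets was mostly gone without wild-type replicate 3. With all 6 arrays 12968 differences were positive and 9637 negative, and with that array left out 11436 and 11184. For the members the counts were then 39 positive and 78 negative. The lean also went when all 6 arrays were kept and rescaled. For all probe sets, 11481 were positive and 11245 negative with a second quantile normalization. With cyclic loess the counts were 11171 and 11575, and with median centring 9117 and 13526. What made the lean was not tested.

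All 7 calls lay among the 37 members with a mean level of at least 6. Of these 37, 18.9% were called, against 12.6% of all probe sets at such levels. None of the 58 members with a mean level under 4 was called, where limma called 0.260% of all probe sets, and 2 of the 58 had an unadjusted p under 0.05. Few changes were detectable at those levels on this array. The plot of difference against level shows AGP1, AGP2, 253316_s_at and AT3G04640 at the lower edge of the cloud of all probe sets, and the other called members nearer to its body.

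**Figure D1:**
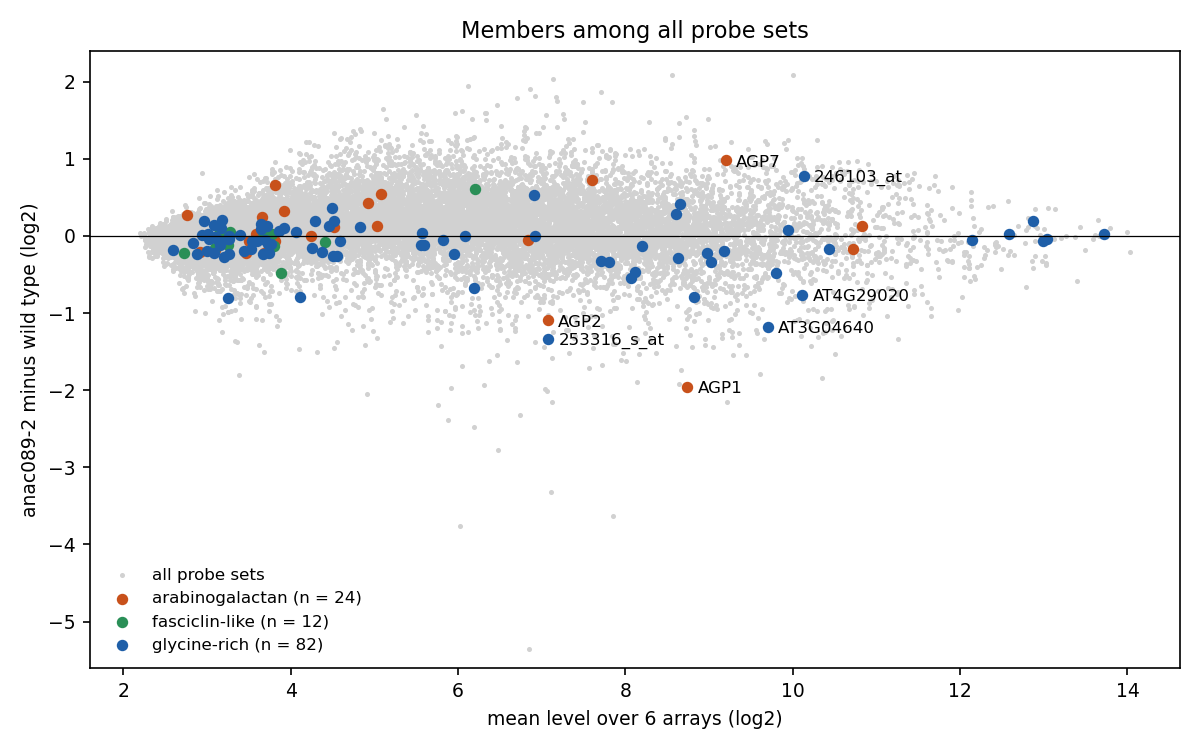
Difference between groups (anac089-2 minus wild type, log2) against mean level over 6 arrays (log2) for all 22746 probe sets in grey and for the 118 members in colour by class. The 7 labelled members passed the threshold, and all 7 lie at mean levels above 6.

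AGP1, a classical arabinogalactan protein, showed the largest difference of the set. Its level was 9.85, 9.61 and 9.70 in wild-type replicates 1 to 3 and 7.44, 8.20 and 7.64 in anac089-2 replicates 1 to 3. The groups did not overlap, and the highest mutant array lay more than 1 log2 unit below the lowest wild-type array. The group means were 9.72 ± 0.12 in wild type and 7.76 ± 0.39 in anac089-2 (SD, n = 3 each). AGP1 thus fell 3.89-fold (-1.96 ± 0.20, SE, limma adjusted p = 0.00969), which made it the 16th lowest difference of all probe sets. Even in anac089-2 its level stayed far above the array medians. In whole seeds, fewer cells of a type and less RNA per cell cannot be told apart.

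AGP2, a second classical member, also fell. It read 7.79, 7.63 and 7.44 in wild type and 6.01, 6.98 and 6.58 in anac089-2. The groups did not overlap, but the 3 mutant arrays were spread over almost 1 log2 unit. The means were 7.62 ± 0.18 and 6.52 ± 0.49 (SD, n = 3 each), a fall of 2.14-fold (-1.10 ± 0.24, SE, limma adjusted p = 0.0467). This call is the closest of the 7 to the threshold.

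AGP7 moved the other way. The gene encodes a further classical arabinogalactan protein and read 8.79, 8.78 and 8.55 in wild type and 9.54, 9.67 and 9.85 in anac089-2. All 3 mutant arrays lay above all 3 wild-type arrays. It rose 1.97-fold, from 8.71 ± 0.14 to 9.69 ± 0.16 (SD, n = 3 each; difference 0.98 ± 0.12, SE, limma adjusted p = 0.0120). So the 3 called arabinogalactan genes, all classical and all well above the array medians, did not share a direction.

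The remaining classical genes did not pass. AGP4, also known as JAGGER and needed to keep additional pollen tubes out of a fertilised ovule, read 3.72, 3.84 and 2.89 in wild type and 3.90, 4.18 and 4.33 in anac089-2. AGP9 read 4.93, 5.06 and 4.45 in wild type and 5.41, 5.07 and 5.59 in anac089-2. For both genes wild-type replicate 3 was the lowest array and every mutant array exceeded every wild-type array. Their differences were 0.65 ± 0.26 (SE, limma adjusted p = 0.219) and 0.54 ± 0.20 (SE, limma adjusted p = 0.187). Without wild-type replicate 3 both came to 0.36.

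AGP10, singled out after its values were seen because it was the brightest gene of the arabinogalactan class, had a mean level of 10.83 and a difference of 0.13. AGP3, AGP5, AGP11 and AGP27 had mean levels under 4 and differences between -0.23 and -0.18. AGP11, a pollen gene, gave 3.69, and the pollen peptide gene AGP23 gave 5.03. Of the 10 classical genes 2 fell, 1 rose and 7 did not pass. The 3 calls are 30.0% of this subclass, which was set after values were seen. They are 12.5% of the 24 arabinogalactan probe sets, against 4.92% of all probe sets. All 3 lay among the 7 of the 24 with mean levels of at least 6. At such levels 12.6% of all probe sets were called. The lysine-rich genes AGP17 and AGP18 did not pass, at differences of 0.24 and 0.00.

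The AG peptides are arabinogalactan proteins whose mature backbone is only a short peptide. None of the 10 passed. With all 6 arrays 7 had positive differences (median 0.12), and without wild-type replicate 3 the median turned to -0.14, with 4 positive and 6 negative. AGP16 had the largest upward difference of the set short of the threshold. It read 7.54, 7.68 and 6.47 in wild type and 7.96, 7.97 and 7.95 in anac089-2. The mutant arrays agreed closely while wild-type replicate 3 lay 1.07 below the nearest other array. The difference was 0.73 ± 0.30 (SE, limma adjusted p = 0.236), and 0.35 without that array. AGP15 was the brightest peptide gene (mean level 10.72, difference -0.17), named after its values were seen. AGP12 and AGP13 were also lowest on wild-type replicate 3, by 0.71 and 0.58 below the nearest other array.

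FLA genes were mostly dim. Of 12 probe sets 10 had a mean level under 4, and none rose or fell at the threshold in limma, where 1 had an unadjusted p under 0.05. FLA8, also listed as AGP8, was the brightest at a mean level of 6.20. It read 6.18, 6.26 and 5.24 in wild type and 6.71, 6.48 and 6.33 in anac089-2, so that the groups did not overlap and wild-type replicate 3 was again the lowest array. Its difference was 0.61 ± 0.27 (SE, limma adjusted p = 0.276), and 0.29 without that array. FLA1 had the lowest difference of the class (-0.49 ± 0.18, SE, limma adjusted p = 0.203) at a mean level of 3.89. FLA11 and FLA12, known from the secondary walls of stems, were at mean levels of 4.41 and 3.80.

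**Figure D2:**
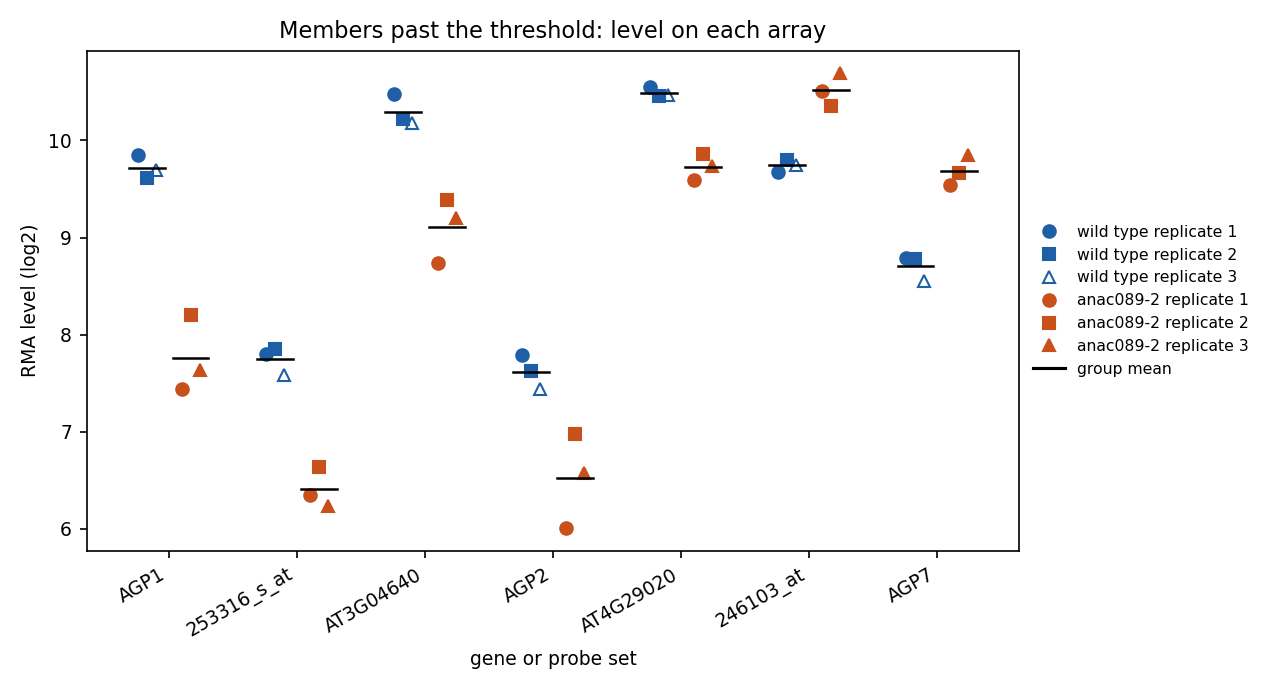
Level (RMA, log2) of the 7 members past the threshold on each of the 6 arrays, wild type in blue and anac089-2 in orange, with 1 symbol per replicate number and a black bar at the group mean. The groups do not overlap for any of the 7, and anac089-2 replicate 2 is the mutant array closest to wild type for 6 of them.

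Among the glycine-rich titles 3 probe sets fell and 1 rose. These calls are 4.88% of the 82, near the 4.92% of all probe sets. The titles of the 3 that fell name nothing beyond glycine-rich protein, and their functions are not described here. Probe set 253316_s_at, of a type that can share probes between similar sequences and titled for a pair of glycine-rich proteins, read 7.80, 7.85 and 7.59 in wild type and 6.35, 6.64 and 6.24 in anac089-2. Every wild-type array lay above every mutant array. The means were 7.75 ± 0.14 and 6.41 ± 0.21 (SD, n = 3 each), a fall of 2.53-fold (-1.34 ± 0.14, SE, limma adjusted p = 0.00976). The probe table lists more than 1 gene for it, so it is given by its ID.

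AT3G04640 read 10.48, 10.22 and 10.18 in wild type and 8.74, 9.39 and 9.20 in anac089-2. It fell 2.27-fold, from 10.29 ± 0.16 to 9.11 ± 0.33 (SD, n = 3 each; difference -1.18 ± 0.18, SE, limma adjusted p = 0.0180). AT4G29020 read 10.55, 10.46 and 10.47 in wild type and 9.59, 9.86 and 9.74 in anac089-2. The wild-type arrays differed from each other by less than 0.1, and the fall was 1.70-fold (-0.76 ± 0.11, SE, limma adjusted p = 0.0145). Both genes were bright, with mean levels of 9.70 and 10.11. The next protein-coding gene along the chromosome from AT4G29020 in the RefSeq annotation, AT4G29030, carries the same title. Its mean level was 3.92 and its difference 0.11, which did not pass.

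The glycine-rich probe set that rose carries a title of another kind. Probe set 246103_at is titled SSXT protein-related as well as glycine-rich protein. SSXT-domain proteins of plants are transcription co-activators known from leaf growth, not wall proteins. It read 9.68, 9.80 and 9.75 in wild type and 10.51, 10.36 and 10.69 in anac089-2, a rise of 1.71-fold (0.78 ± 0.11, SE, limma adjusted p = 0.0163). The groups were apart by more than their own spread. Its gene is not named here.

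Probe set 264026_at, titled a cold-shock DNA-binding family protein and glycine-rich protein (GRP2), belongs to a family of nucleic acid binding proteins. It read 8.44, 8.01 and 8.57 in wild type and 7.57, 7.83 and 7.97 in anac089-2. The lowest wild-type array lay just above the highest mutant array. The difference of -0.55 ± 0.18 (SE) did not pass (limma adjusted p = 0.138).

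The 5 brightest members were 4 oleosins, proteins that coat the oil bodies of seeds, and M17. Of 8 probe sets titled oleosin, none passed in limma, and none had an unadjusted p under 0.05. Their mean levels ran from 8.97 to 13.72 and their differences from -0.48 to 0.19. Probe set 254095_at, the brightest of all members, read 13.71, 13.68 and 13.73 in wild type and 13.74, 13.71 and 13.74 in anac089-2. Its difference was 0.02 ± 0.09 (SE). Probe sets 249353_at and 258240_at gave -0.04 and -0.07 at mean levels of 13.04 and 12.99. AT3G01570 gave 0.19 ± 0.09 (SE, limma adjusted p = 0.303) with all mutant arrays above all wild-type arrays. M17, a late embryogenesis abundant protein, read 12.32, 12.63 and 12.78 in wild type and 12.84, 12.66 and 12.31 in anac089-2, with groups that overlapped fully.

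GRP14 and GRP16 to GRP20 lie in runs of neighbouring genes and encode pollen coat proteins with an oleosin domain. They were dim, with mean levels between 3.02 and 4.37, and none of the 6 passed (differences -0.22 to 0.14). None of the 5 probe sets titled pseudogene passed either. One of these, AT2G05580, read 8.89, 9.03 and 9.73 in wild type and 8.18, 8.64 and 8.47 in anac089-2 (difference -0.79 ± 0.23, SE, limma adjusted p = 0.114). Without wild-type replicate 3 its difference was -0.53.

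**Figure D3:**
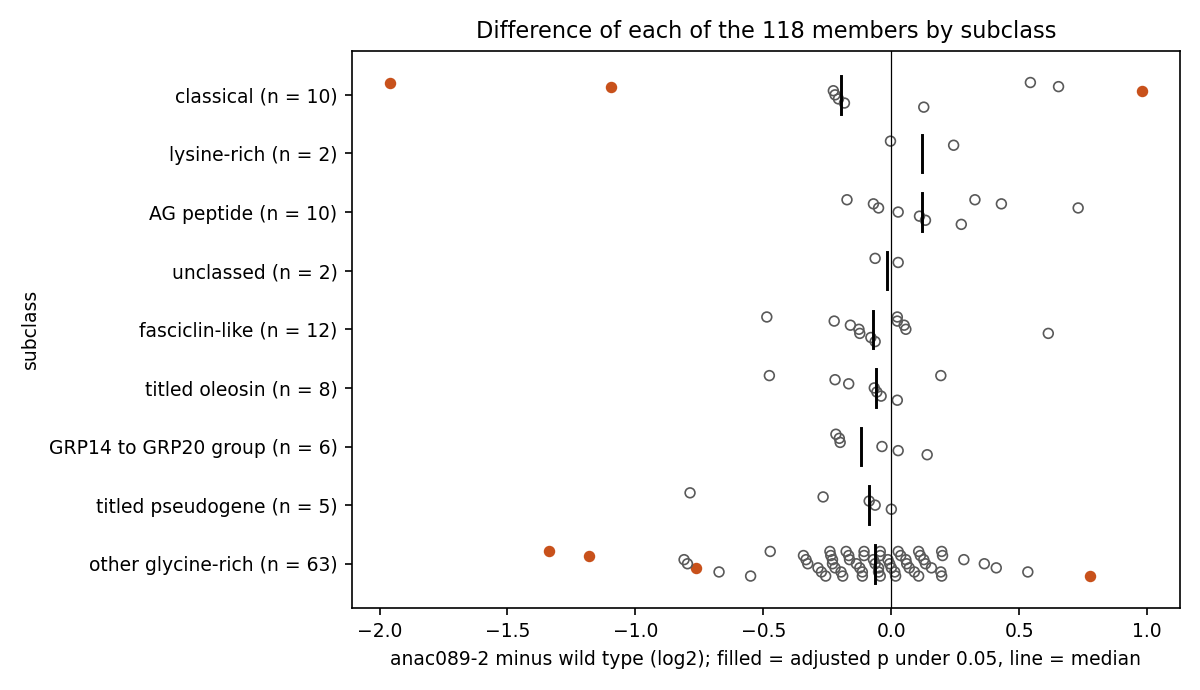
Difference (anac089-2 minus wild type, log2) of each of the 118 members, one row per subclass, with filled orange points for an adjusted p under 0.05, open points otherwise, and a black line at the subclass median. The 7 calls fall in the classical arabinogalactan row (3) and in the row of other glycine-rich titles (4).

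Most of the large differences that did not pass, upward ones such as AGP16 and downward ones alike, were smaller without wild-type replicate 3. Probe set 265561_s_at, titled for a pair of glycine-rich proteins, read 3.03, 3.35 and 4.59 in wild type and 3.00, 2.87 and 2.67 in anac089-2. AT1G67870 read 3.80, 4.21 and 5.52 in wild type and 3.86, 3.69 and 3.59 in anac089-2. In both, wild-type replicate 3 lay far above the other 5 arrays, by 1.24 and 1.31, and the remaining wild-type arrays were near the mutant ones. The differences were -0.81 ± 0.37 and -0.80 ± 0.40 (SE), with limma adjusted p = 0.293 and 0.339, and -0.34 and -0.29 without that array.

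This array was low for other members. AT5G47020 read 6.94, 6.82 and 6.16 in wild type and 7.44, 6.88 and 7.20 in anac089-2 (difference 0.53 ± 0.23, SE, limma adjusted p = 0.270), with wild-type replicate 3 lowest, and 0.29 without it. AT4G32920 read 6.61, 6.87 and 6.09 in wild type and 5.65, 6.09 and 5.81 in anac089-2 (difference -0.67 ± 0.21, SE, limma adjusted p = 0.135). Here wild-type replicate 3 lay level with the highest mutant array. AT4G32920 passed with array weights, cyclic loess, a second quantile normalization and median centring (differences -0.86 to -0.76, limma adjusted p from 0.0155 to 0.0447). Wild-type replicate 3 lay at least 0.5 above the other 5 arrays for 5 members (4.24%) and at least 0.5 below them for 11 (9.32%). Over all probe sets these shares were 2.76% and 9.05%.

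Without wild-type replicate 3, 9 of the 118 members fell and 3 rose. The same 7 were among these 12. The added ones were AT4G32920 (-0.89, limma adjusted p = 0.0227), AT5G11700 (-0.47), GRP17 (-0.45), AT3G59640 (-0.40) and AT1G27090 (0.43), named after their values were seen. All 5 are glycine-rich titles, as are 82 of the 118 members. The count over all 22746 probe sets rose too, from 1120 to 1667.

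**Figure D4:**
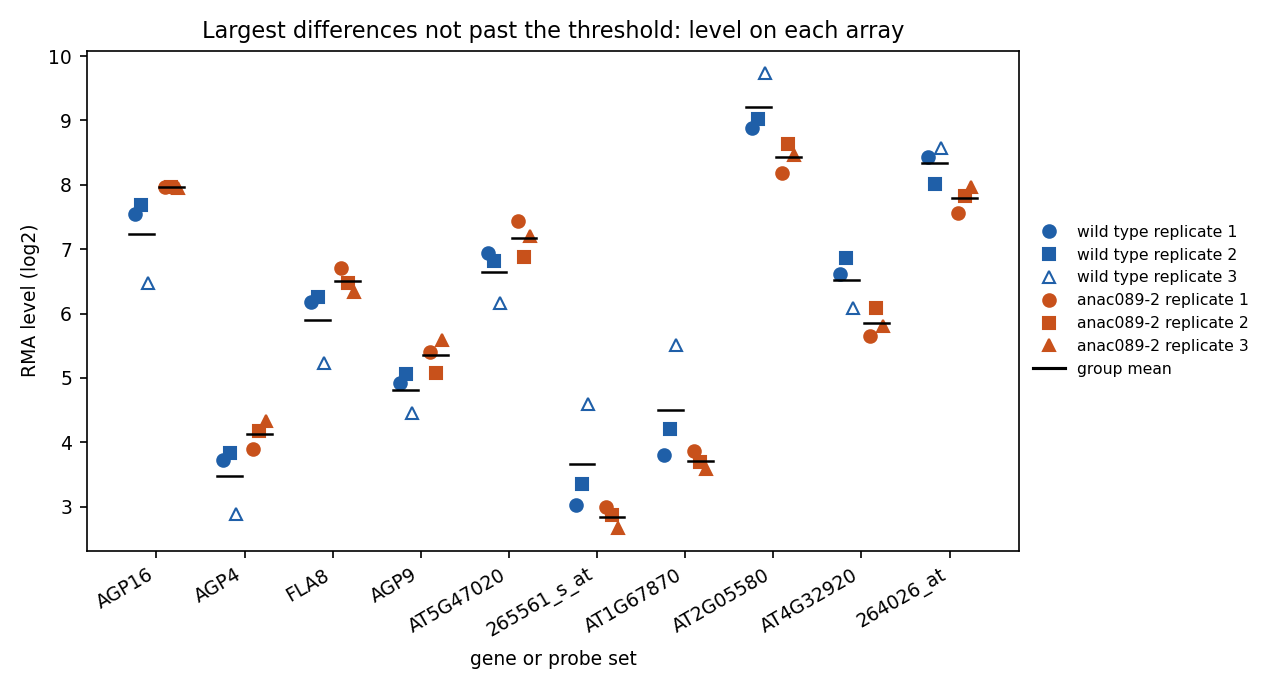
Level (RMA, log2) on each of the 6 arrays of the 5 members with the largest upward and the 5 with the largest downward difference that did not pass, wild type in blue with replicate 3 as an open triangle and anac089-2 in orange, with a black bar at the group mean. Wild-type replicate 3 is the lowest array for AGP16, AGP4, FLA8, AGP9 and AT5G47020 and the highest for 265561_s_at, AT1G67870, AT2G05580 and 264026_at.

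The calls also leaned on the mutant arrays. Among the 7 called members anac089-2 replicate 2 was the mutant array closest to the wild-type mean in 6, and replicate 1 in the case of AGP7. Over all 1120 called probe sets replicate 2 was the closest in 63.8%. Without anac089-2 replicate 1 or without replicate 3, no member passed in limma, while all 7 kept their direction. AGP1 then had -1.80 (adjusted p = 0.0601) and -1.90 (adjusted p = 0.0824), and AGP7 had 1.05 (adjusted p = 0.0704) and 0.90 (adjusted p = 0.0824). In the same settings only 6 and 4 of all probe sets passed. The count was 470 without anac089-2 replicate 2, 521 without wild-type replicate 1 and 301 without wild-type replicate 2.

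AGP1, AGP7 and 253316_s_at passed with any of the other 4 arrays left out. AT4G29020 lost its call without wild-type replicate 2 (adjusted p = 0.0513). AT3G04640, AGP2 and 246103_at lost theirs without wild-type replicate 1 or replicate 2. AGP2 varied most, between -1.33 and -0.84, with adjusted p-values from 0.0427 to 0.171.

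**Figure D5:**
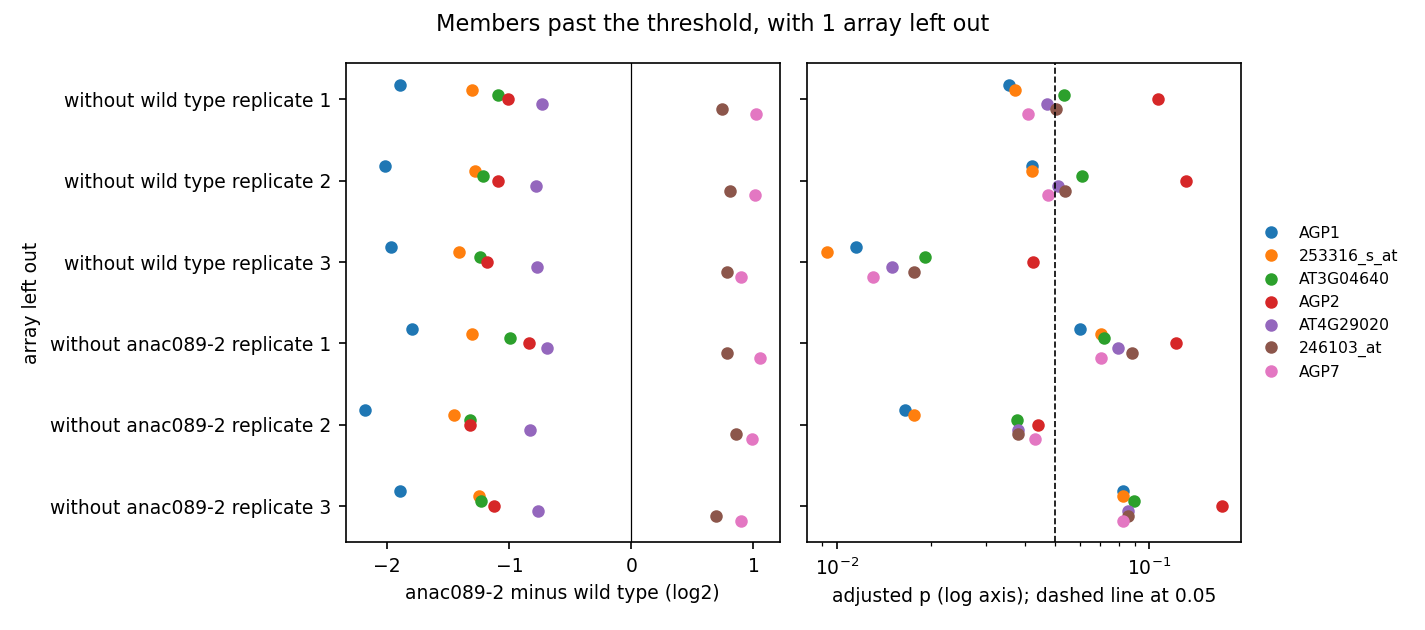
Difference (anac089-2 minus wild type, log2, left) and limma adjusted p (log axis, right, dashed line at 0.05) of the 7 called members with each array left out in turn. Every difference keeps its sign, and all 7 adjusted p-values lie above the line without anac089-2 replicate 1 and without anac089-2 replicate 3.

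The enzymes that make arabinogalactan chains were compared from a list of 24 genes for prolyl hydroxylation and glycosylation, of which 15 were measured under a name found here. None passed in limma, and 3 had an unadjusted p under 0.05 (median difference 0.03). GALT6, a hydroxyproline galactosyltransferase that starts the chains, was 8.60 ± 0.18 in wild type and 8.10 ± 0.18 in anac089-2 (SD, n = 3 each; difference -0.50 ± 0.14, SE, limma adjusted p = 0.0919). Without wild-type replicate 3 it passed, at -0.60 (adjusted p = 0.0391). GALT3, of the same enzyme family, gave 0.49 ± 0.19 (SE, limma adjusted p = 0.209). Of the 15, 8 had mean levels under 4. The prolyl hydroxylases of the list are not among the 15.

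Other wall structural proteins were taken by title, without a test against the members. The 46 probe sets with extensin in the title are a mixed list, since 13 are titled pollen Ole e 1 allergen and extensin family and 13 name a leucine-rich repeat as well. Of the 46, none passed in limma, 1 had an unadjusted p under 0.05, and 33 had mean levels under 4. Their largest differences, for 255139_s_at (-1.41) and 259553_x_at (-0.92), came to -0.40 and -0.24 without wild-type replicate 3, which read 6.36 and 6.63 where the other 5 arrays read at most 3.56 and 5.01. Of 149 probe sets titled proline-rich, hydroxyproline-rich glycoproteins included, 7 fell and 1 rose. Among those that fell were 247445_at (-1.04), AT5G65660 (-1.03), AT3G49300 (-0.95) and AT5G43770 (-0.74), the 4 largest called differences of the list. Over the whole list the differences ran from -1.41 to 1.59, and neither end passed. A title can place a probe set in both the extensin and the proline-rich list. The 8 calls are 5.37% of the proline-rich list, near the 4.92% of all probe sets.

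The glycine-rich RNA-binding proteins, which share the glycine-rich stretch but bind RNA, are left out of the set by its rule. Of their 12 probe sets 2 rose and none fell, so 16.7% were called, against 4.92% of all probe sets. Of the 12, 8 had mean levels of at least 6, where 12.6% of all probe sets were called. Probe set 256890_at rose by 1.54 ± 0.11 (SE, limma adjusted p = 0.00589), and 263548_at, titled GRP7, known from the circadian clock and cold response, by 0.84 ± 0.14 (SE, limma adjusted p = 0.0208).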

How the data were processed

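The log2 values deposited for each array were made with RMA, per the submitters' processing notes, which also name limma without a version. Per the file headers, the authors' deposited table holds log2 differences, group means, signed fold changes, limma p-values and standard errors (read here as score values), and titles. Its 6 per-array columns were not used, and 5 of the deposited p-value cells that had lost a decimal point were read as 1. Its log2 differences were within 0.014 of those computed here.

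After 64 control probe sets were set aside, limma 3.58.1 (R 4.3.3, lmFit and eBayes, 6 arrays, 2 groups, no block) was fitted to 22746 probe sets, with Benjamini-Hochberg adjustment. The fit was tried on simulated data with independent noise for each probe set. Those data held no array that stood apart as wild-type replicate 3 did, so the trial cannot speak to that. With 3 arrays against 3, an exact permutation test cannot give a two-sided p below 0.1. The number of arrays limits the precision.

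The members, lists and naming rule were chosen with earlier results of these data known. Named were AGP1, every member past the threshold, the 5 largest differences each way short of it, the 5 brightest members, and in each comparison list up to 4 called or else 2 probe sets. Other members named were picked after their values were seen. Subclasses of arabinogalactan genes follow common usage and were set after values were seen. Of the 118 members 102 had a RefSeq locus (assembly TAIR10.1), 62 through GEO's annotation of the platform and 40 through the authors' symbol, and 14 had no gene name. The same annotation gave which genes neighbour each other. No sequence or coordinate is shown.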

Additional observations from a re-analysis of the deposited data

How the results depend on the processing

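AGP1, AGP7 and 253316_s_at passed under all 9 other normalizations, filters, spread estimates, blocks and statistics tried, and the direction of all 7 called members held in each of these and with any array left out. With the replicate number as a block, 1 member was higher and 2 were lower, out of 494 probe sets. AT3G04640 (adjusted p = 0.0504), AT4G29020 (0.0507), 246103_at (0.0507) and AGP2 (0.0744) lost their calls, 1 glycine-rich member and 1 glycine-rich RNA-binding probe set passed, and 2 of the proline-rich list did. The correlation of residuals between arrays with the same number was -0.089, -0.063 and -0.135, none of them positive. With 3 arrays a group, this cannot tell whether arrays with the same number were processed together. At an adjusted p under 0.01, 45 probe sets passed, 0 members higher and 2 lower (AGP1 and 253316_s_at), with 1 arabinogalactan, 1 glycine-rich, 1 RNA-binding and 0 proline-rich. Requiring a difference of at least 1 left 321 probe sets and 0 members higher. The members left lower were AGP1, AGP2 and 2 glycine-rich members, 253316_s_at and AT3G04640. Of the comparison lists, 1 RNA-binding and 2 proline-rich probe sets were left. The whole-array count was 1701 with a second quantile normalization, 1784 with cyclic loess and 2070 with array weights. Under the latter 2, 7 glycine-rich members passed, and 8 members were lower with cyclic loess. The proline-rich count was 14, 13 and 19 in these 3 and 15 with median centring, and in all 4 settings the glycine-rich member AT4G32920 and 1 glycosylation gene, GALT6, passed. The share of higher calls over all probe sets was 59.7%, and 52.4%, 51.2% and 50.6% with quantile, median and loess scaling. The median difference of the 24 arabinogalactan probe sets, 0.03, was -0.04, -0.06 and -0.08 there, so it has no settled sign. With 1 array left out, the counts ran from 4 to 1667 for all probe sets, 0 to 3 for higher members, 0 to 9 for lower members, 0 to 3 for arabinogalactan, 0 to 9 for glycine-rich, 0 to 3 for RNA-binding, 0 to 1 for glycosylation and 0 to 13 for proline-rich probe sets, and AGP1 from -2.18 to -1.80. The FLA and extensin counts stayed at 0 in every setting. The cause was not tested.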
